A study of Mus musculus with 6 samples.

Results

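The genes described here are the cytosolic ribosomal protein genes of mouse islet cells. They were chosen by symbol alone: Rpl or Rps followed by a number and at most one of the letters a, x, l or y, together with Rplp0, Rplp1, Rplp2 and Rpsa. This rule found 82 of the 52542 gene rows, of which 50 have a large-subunit symbol and 32 a small-subunit symbol. GENCODE annotates 80 of the 82 as protein coding, Rps4l as a transcribed processed pseudogene and Rpl6l as a processed pseudogene. In the wells kept, 75 of the 82 had at least 1 UMI (unique molecular identifier, a tag that counts 1 captured transcript). Among the 7 listed at 0 were Rpl3, Rpl3l, Rpl10l, Rpl23a, Rpl39l and Rpl41. Rps3a1, a ribosomal protein gene whose symbol ends in a digit, falls outside the rule.

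The islets came from male Sox9-CreER; tdTomato mice. All of them received tamoxifen (8 mg) from 10 weeks of age, were operated on at 12 weeks and were sampled 4 weeks later. The operation was a partial pancreatectomy (ppx) or a sham, with 3 plates of 384 wells for each. The tdTomato label marks cells in which Sox9, a transcription factor gene of the pancreatic ducts, was active when tamoxifen was given, and their descendants. Replicate 1 of both operations held tomato-positive wells. Sham replicate 2 held both kinds, and the remaining 3 plates held tomato-negative wells. The labels do not say which mouse a plate came from, so p-values measure the spread between plates only. MARS-seq, the method used, reads the 3′ ends of transcripts from single sorted wells.

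A ribosome has a large subunit, which joins amino acids, and a small subunit, which reads the mRNA. Most proteins of the ribosome are present in a single copy, so cells tend to make these proteins together. Their mRNAs begin with a run of C and T letters, the 5′ terminal oligopyrimidine (TOP) tract, through which mTOR signalling sets how strongly they are translated. Islet endocrine cells give a large part of their mRNA to hormones: beta cells to insulin, alpha cells to glucagon and delta cells to somatostatin.

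The stretches of genome at the start sites of 8 members are shown because the results below turn on these genes. Each runs from 25 bases before the RefSeq start to 15 bases after it, on the gene's own strand (GRCm38.p6). Capitals mark runs of 6 or more C or T letters.
Rpl14: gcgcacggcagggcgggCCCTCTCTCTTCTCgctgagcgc
Rps15a: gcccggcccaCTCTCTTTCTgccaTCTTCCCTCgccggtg
Rpl37: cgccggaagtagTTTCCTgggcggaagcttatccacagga
Rps10: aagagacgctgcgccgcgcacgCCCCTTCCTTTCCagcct
Rpl4: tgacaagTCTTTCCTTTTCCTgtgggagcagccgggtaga
Rps4x: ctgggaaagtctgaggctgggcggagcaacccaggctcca
Rplp0: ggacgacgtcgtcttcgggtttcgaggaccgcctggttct
Rps27l: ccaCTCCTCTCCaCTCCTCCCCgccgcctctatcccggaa
The Rpl14 window lies at chr9:120571492-120571531 on the plus strand and the Rps15a window at chr7:118116133-118116172 on the minus strand. The windows of Rpl37 (chr15:5116588-5116627), Rpl4 (chr9:64173362-64173401), Rplp0 (chr5:115559442-115559481) and Rps27l (chr9:66946061-66946100) are on the plus strand. Those of Rps10 (chr17:27635230-27635269) and Rps4x (chrX:102189377-102189416) are on the minus strand.

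RefSeq's promoter table held an entry for 60 of the 82 members. Of these 60, 61.7% had a run of at least 6 C or T letters in the 40-base window, against 37.8% of the 27025 genes in the table. The complementary run of A or G letters stood in 21.7% of the members and 39.7% of all genes. The word CTTTCC, itself a run of 6 C or T letters, stood in 16.7% of the members and 1.91% of all genes, and its complement GGAAAG in 1.67% and 1.57%. A match is a description of these letters and not a mapped start site. Rplp0 and Rps4x, which appear below for opposite patterns, both lacked a run in this window, and Rps27l had a pair of long ones.

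After wells under 500 UMIs (96) and wells above 20% mitochondrial UMIs (93) were left out, 2115 of 2304 wells remained, with 339 to 362 wells and 1222716 to 1439769 UMIs per plate. No well name was shared between plates. The members held 157346 of the 8099658 UMIs, or 1.94%. Wells were grouped by hormone: insulin-only (1000 wells, at least 3% of UMIs from Ins1 and Ins2), somatostatin-only (538 wells, at least 0.7% Sst) and glucagon-only (154 wells, at least 2% Gcg), each high in no other of these 3 hormones. A further 180 wells were high in both insulin and somatostatin and are called joined wells, 61 were high in Ppy (at least 2%) alone, 109 were low in insulin, Sst, Gcg and Ppy (called hormone-low), and 73 held another combination. The plates differ in make-up: the tomato-positive plates held 22 and 19 insulin-only wells but 212 and 224 somatostatin-only wells, and ppx replicates 2 and 3 held 9 and 11 somatostatin-only wells. Of glucagon-only wells there were 16, 49 and 58 after sham and 6, 17 and 8 after ppx.

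Ppy did not enter the definition of the 3 single-hormone classes, and 320 somatostatin-only wells (59.5%), 29 glucagon-only wells (18.8%) and 8 insulin-only wells (0.8%) were also above the Ppy threshold. Ppy took 1.9% to 12% of UMIs over plates in somatostatin-only wells, 0.738% to 7.36% in glucagon-only and 0.0864% to 0.555% in insulin-only wells.

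The beta, alpha and delta lists, without hormones, were each highest in the class of that hormone. The summed level of the beta list was 7163 to 10840 CPM (UMIs scaled to a common library total) in insulin-only wells over plates, 446 to 1138 in glucagon-only and 258 to 835 in somatostatin-only wells. The alpha list lay at 2007 to 2857 CPM in glucagon-only against 835 to 998 in insulin-only wells. The delta list lay at 4889 to 6586 CPM in somatostatin-only against 603 to 1143 in insulin-only wells, although 1 gene of it, Pdyn, was lower in somatostatin-only wells (76.6 against 174 CPM, summed over plates). Duct genes summed to 997 to 1732 CPM in somatostatin-only and 413 to 636 in insulin-only wells, with Krt19 and Cftr at 0 UMIs in both. In somatostatin-only wells most of it came from Clu (1196 CPM). In insulin-only wells most came from Krt7 (187 CPM), Krt18 (173 CPM) and Clu (130 CPM). Acinar genes summed to 110 to 477 CPM in somatostatin-only and 0 to 44.5 CPM in insulin-only wells. In somatostatin-only wells almost all of it came from Cela1 (250 CPM), with Cpa1, Pnlip, Cel, Cela2a and Amy2a5 at 0 UMIs there. The part of these genes in the results was not tested. The hormone-low wells were mixed and differed between plates, with stromal genes at 1111 to 8110 CPM, acinar genes of up to 120100 CPM (ppx replicate 3), macrophage genes of up to 18980, duct genes of up to 17980, erythroid genes of up to 16160 and endothelial genes of up to 10850 CPM. They also held 6453 UMIs of Ghrl, the ghrelin gene (41770 CPM), so they are not 1 cell type.

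Glucagon-only wells gave the highest share of their UMIs to ribosomal protein genes, somatostatin-only wells an intermediate share and insulin-only wells the lowest, in the same order on all 6 plates. In insulin-only wells the share was 1.33%, 1.52% and 1.57% after sham and 1.68%, 1.76% and 1.66% after ppx (1.59% ± 0.153, SD, n = 6 plates). In somatostatin-only wells it was 2.30%, 2.25% and 2.40% after sham and 2.54%, 2.61% and 1.86% after ppx (2.33% ± 0.268, n = 6). Glucagon-only wells gave 3.20%, 3.12% and 3.66% after sham and 3.24%, 3.09% and 2.76% after ppx (3.18% ± 0.29, n = 6). No plate value of one of these classes overlapped another class.

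**Figure D1:**
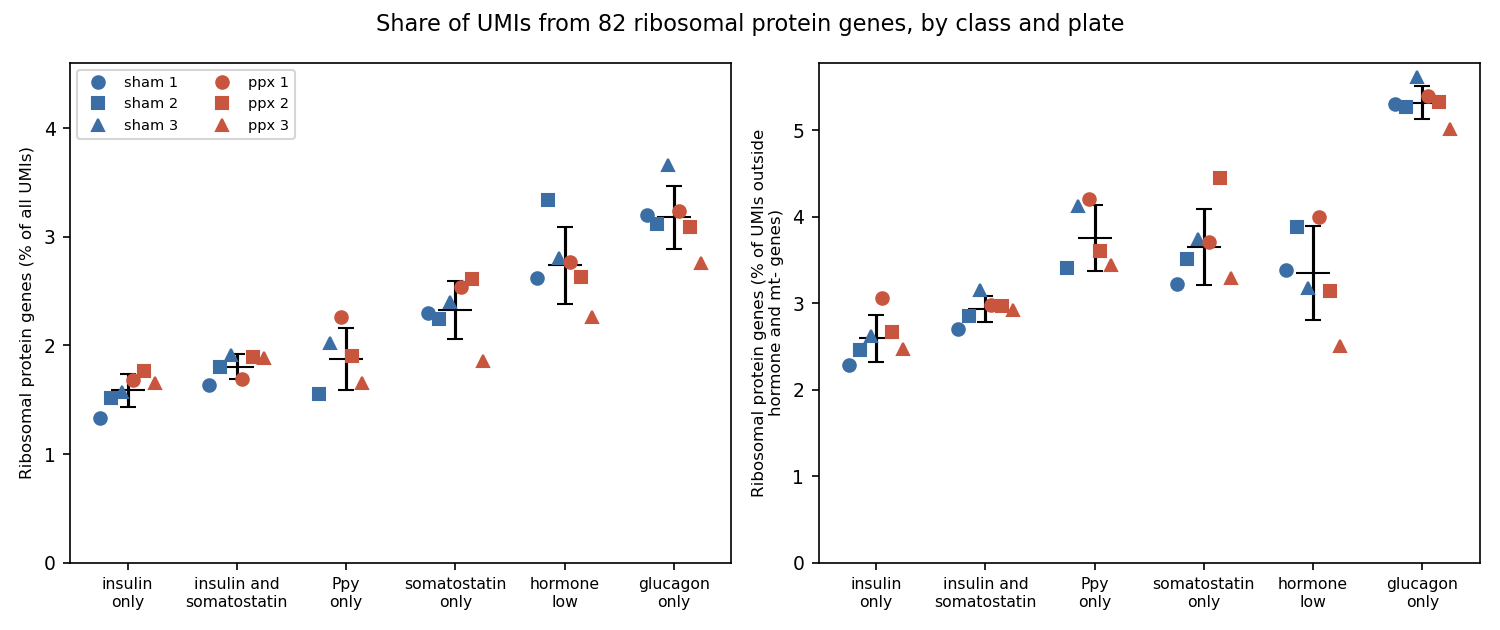
Share of UMIs from the 82 ribosomal protein genes in each class of wells (horizontal axis), as a percent of all UMIs (left) and of UMIs outside hormone and mitochondrial genes (right). Each point is a plate, coloured by operation, and the bars are mean ± SD over plates. On the left, glucagon-only wells lie between 2.76% and 3.66% and insulin-only wells between 1.33% and 1.76%.

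Within plates, the share was higher in glucagon-only than in insulin-only wells by 1.59 percentage points (SD 0.356), a ratio of 2.02 ± 0.301. Somatostatin-only wells exceeded insulin-only wells by 0.739 points (SD 0.275), a ratio of 1.48 ± 0.197. Glucagon-only wells exceeded somatostatin-only wells by 0.854 points (SD 0.26), a ratio of 1.38 ± 0.129. Each difference had the same sign on 6 of 6 plates, and each gave p = 0.0312 in an exact two-sided sign-flip permutation test, the smallest that 6 plates allow. Adjusted over the 10 tests of shares, that p is 0.0781, so none of the 3 passes 0.05 after adjustment. With the Ppy-high wells left out, a choice made after seeing the data, the shares were 1.58% ± 0.167 in insulin-only (6 plates), 2.32% ± 0.238 in somatostatin-only (5 plates) and 3.29% ± 0.351 in glucagon-only wells (4 plates).

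Depth and the hormone load had other orders. Median UMIs per well were 4377 ± 2296 in glucagon-only, 4441 ± 509 in insulin-only and 1780 ± 222 in somatostatin-only wells (mean of plate medians ± SD). Hormone genes took 34.2%, 29.5% and 25.1% of UMIs in the same order. With hormone and mitochondrial UMIs taken out of the total, the share was 5.32% ± 0.194 in glucagon-only, 3.65% ± 0.44 in somatostatin-only and 2.59% ± 0.267 in insulin-only wells. The mitochondrial share, which differs with RNA quality as well as with cell type, was 6.11% in glucagon-only, 9.19% in insulin-only and 11.1% in somatostatin-only wells, and its part in the result was not tested. Per well, the plate means of member UMIs were 109 to 242 in glucagon-only, 70.0 to 84.9 in insulin-only and 40.5 to 55.8 in somatostatin-only wells. Synthetic spike-in RNAs gave 3 UMIs in all, so a class with more ribosomal protein mRNA per cell and a class with less of other mRNA cannot be told apart from these shares.

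The other classes fell between these. Ppy-only wells gave 1.88% ± 0.286 (5 plates), joined wells 1.81% ± 0.115 (6 plates), wells with other hormone combinations 2.70% ± 0.239 (4 plates) and hormone-low wells 2.74% ± 0.352 (6 plates). Outside hormone and mitochondrial UMIs, Ppy-only wells stood at 3.76% ± 0.379 and hormone-low wells at 3.35% ± 0.543. Hormone-low wells exceeded insulin-only wells by 1.15 points (SD 0.414) on 6 of 6 plates (exact sign-flip permutation p = 0.0312, adjusted 0.0781). This difference was 0.754 points with hormone and mitochondrial UMIs left out of the total.

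The share in joined wells was set against the sum of the UMIs of 1 insulin-only and 1 somatostatin-only well from the same plate. The observed share was 1.64%, 1.81% and 1.91% after sham and 1.70%, 1.90% and 1.88% after ppx. The sum of single wells gave 1.56%, 1.72% and 1.80% after sham and 1.91%, 2.03% and 1.74% after ppx. The observed value was above the sum on 4 plates and below it on 2, with a mean difference of 0.0133 points (SD 0.146, exact sign-flip permutation p = 0.844, n = 6). The sum takes equal numbers of both cells, and a well can hold other mixtures.

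At matched depth the 3 classes kept their order. The depth bins hold different sets of plates. In insulin-only wells the share was 1.97% ± 0.181 from 1000 up to 2000 UMIs per well (4 plates), 1.71% ± 0.0839 from 2000 up to 4000 (5 plates), 1.56% ± 0.159 from 4000 up to 8000 (6 plates) and 1.59% ± 0.104 at 8000 or more (4 plates). In somatostatin-only wells it was 2.59% ± 0.116 below 1000 UMIs (3 plates), 2.37% ± 0.327 from 1000 up to 2000 (6 plates) and 2.27% ± 0.191 from 2000 up to 4000 (5 plates). Below 1000 UMIs only 1 plate had enough insulin-only wells, and it gave 2.42%, close to the somatostatin-only value there. Glucagon-only wells gave 3.37% ± 0.383 from 2000 up to 4000 and 3.16% ± 0.266 from 4000 up to 8000 (4 plates each). From 2000 up to 4000 UMIs, where all 3 classes had at least 4 plates, the classes thus stood at 1.71%, 2.27% and 3.37%. Within insulin-only wells of a plate, the deeper wells exceeded the shallower by -0.0534 points on average (SD 0.135, higher on 2 of 6 plates, exact sign-flip permutation p = 0.406). The 2 plates where the deeper wells were higher were replicate 1 of both operations, with 22 and 19 insulin-only wells. On the other 4 plates, with 177 to 294 such wells, the deeper wells were lower. Each plate counted equally, so this p does not show that share and depth are unrelated. With the hormone thresholds doubled, the deep minus shallow difference was -0.137 points (p = 0.0312, exact sign-flip permutation, the smallest possible).

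**Figure D2:**
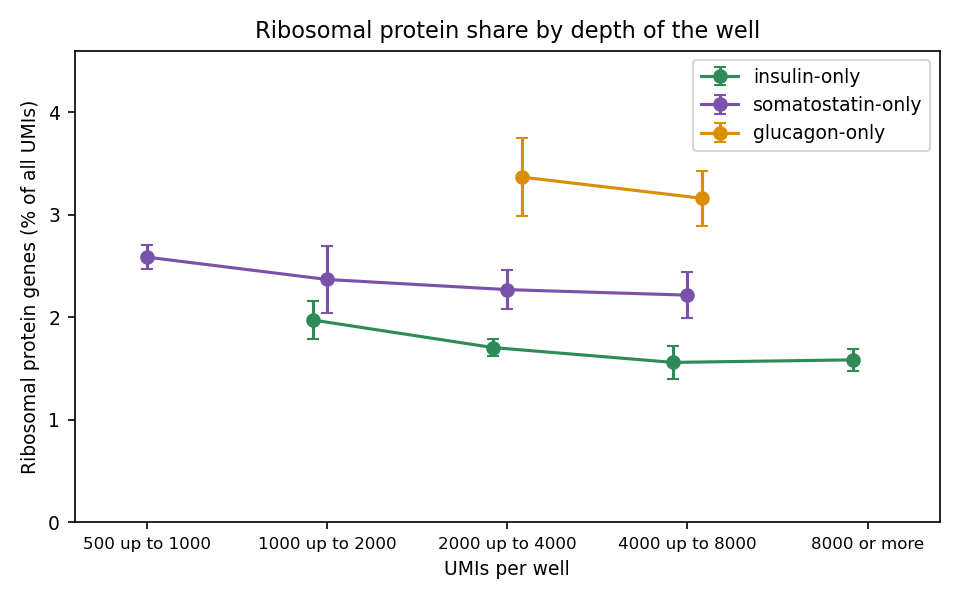
Share of UMIs from ribosomal protein genes (vertical axis, percent of all UMIs) by UMIs per well (horizontal axis) for the 3 single-hormone classes. Points are means over plates and bars SD, shown where at least 2 plates had enough wells. From 2000 up to 4000 UMIs per well the classes stand at 1.71%, 2.27% and 3.37%.

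The number of members seen in a well gave the same order once depth was equal. With each well thinned to 1000 UMIs, 20.7 ± 1.36 members were seen per glucagon-only well, 16.9 ± 2.22 per somatostatin-only well and 12.7 ± 1.05 per insulin-only well (mean ± SD over 6 plates). Without thinning the values were 38.3, 25.4 and 31.2, in wells of unequal depth. Thinning left out 2 glucagon-only, 58 somatostatin-only and 12 insulin-only wells as too shallow. Hormone-low wells showed 19.6 ± 2.46 members, from 43 wells of 4 plates after 47 were left out.

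Genes were then tested one by one on sums of UMIs, 1 sum for each class and plate. The low-count filter kept 1820 genes, among them 44 of the 82 members, and these 44 also pass it in the insulin-only sums alone. The other 38 were not tested. Between glucagon-only and insulin-only wells, 43 of the 44 members tested were higher in glucagon-only wells and none was lower (edgeR quasi-likelihood test, adjusted p under 0.05). Of all genes tested, 23.8% were called higher and 23.9% lower. The median log2 fold change was 1.17 over the members and -0.02 over all genes. All 25 large-subunit members and 18 of 19 small-subunit members were called, with medians of 1.17 and 1.18, and 39 members were higher on all 6 plates, as were 17.3% of all genes tested.

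The member with the highest level over the 3 classes was Rps24, a small-subunit protein gene on chromosome 14 (24487125 to 24496959, GRCm38). Its normalised level in insulin-only wells was 1029, 1159 and 1333 CPM after sham and 1322, 1302 and 1097 after ppx. In somatostatin-only wells it was 1710, 1964 and 1495 CPM after sham and 2194, 1637 and 1509 after ppx. Glucagon-only wells had 3507, 2897 and 3167 CPM after sham and 2835, 2731 and 2355 after ppx. The 3 classes did not overlap, and the log2 fold change of glucagon-only over insulin-only wells was 1.26 ± 0.0967 (SE, edgeR adjusted p = 2.21e-18). Rpl4, the next in level and a large-subunit protein, showed a smaller difference (0.79 ± 0.0945, edgeR adjusted p = 5.89e-11). It stood at 1289 to 1717 CPM in insulin-only, 1417 to 1842 in somatostatin-only and 2003 to 2858 in glucagon-only wells, so that only the glucagon-only wells stood apart.

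Rpl37, a small zinc-binding protein of the large subunit, had the largest difference among the 44 members tested. In insulin-only wells it stood at 130.0, 124.6 and 175.5 CPM after sham and at 222.7, 213.8 and 160.2 after ppx. Levels in glucagon-only wells were 566.3, 371.4 and 586.3 CPM after sham and 339.0, 444.6 and 577.7 after ppx, without overlap (log2 fold change 1.57 ± 0.168, edgeR adjusted p = 1.46e-12). Somatostatin-only wells, at 136.4 to 509.5 CPM, overlapped both. The next were Rps15a (1.55), Rpl13 (1.53), Rpl14 (1.47), Rpl35a (1.45), Rps10 (1.44), Rps4x (1.43), Rps15 (1.42), Rpl7 (1.40) and Rps19 (1.38), each higher on 6 of 6 plates. The 12 members tested that lacked a C or T run in the promoter window had a median of 1.15 and the 22 with a run a median of 1.21.

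**Figure D3:**
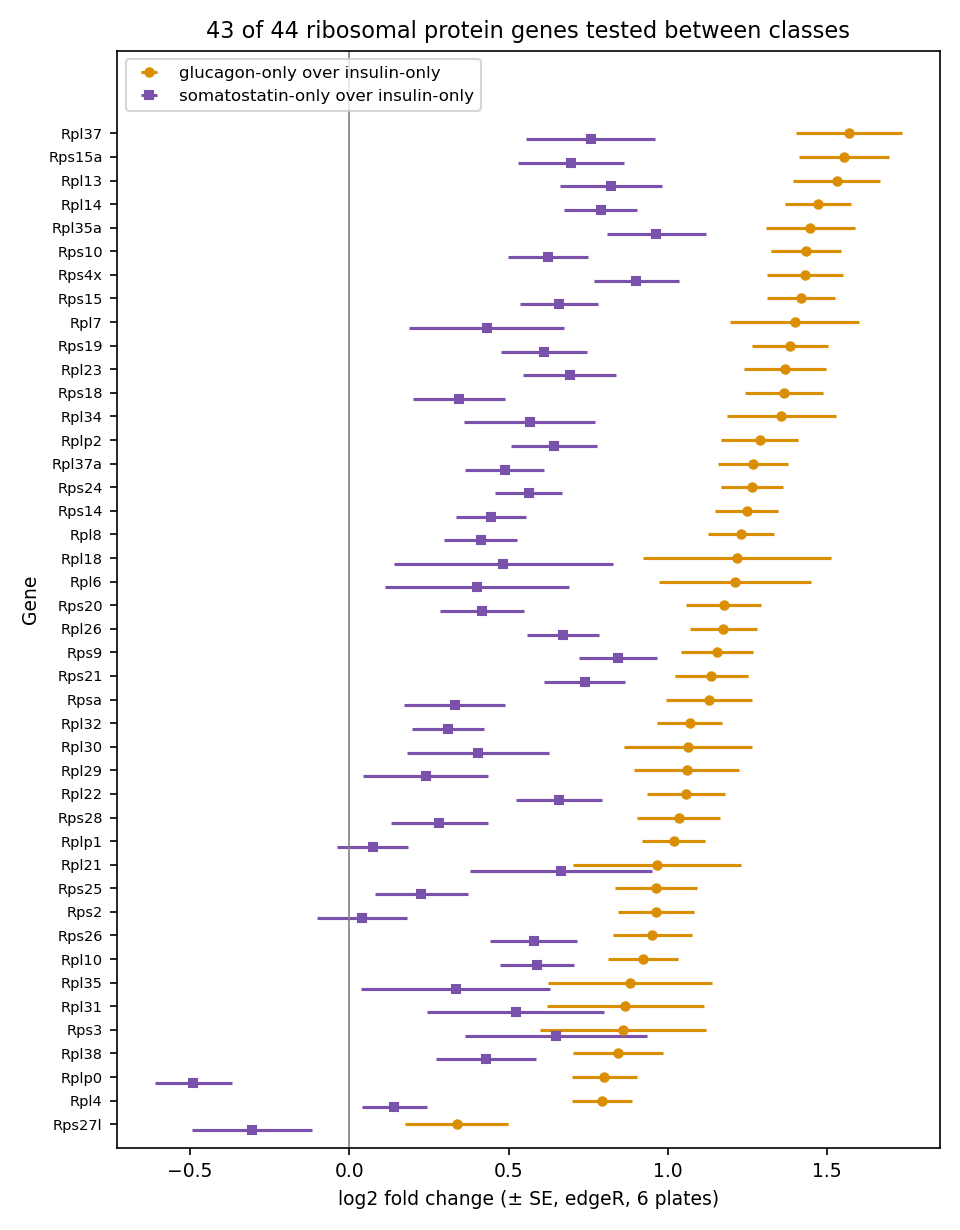
log2 fold change ± SE (horizontal axis, edgeR, 6 plates) of 43 of the 44 ribosomal protein genes tested, one gene per row, for glucagon-only over insulin-only wells (circles) and somatostatin-only over insulin-only wells (squares). Both sets of values use the same insulin-only sums. All circles shown lie right of 0, from 0.34 (Rps27l) to 1.57 (Rpl37), and the squares of Rplp0 (-0.49) and Rps27l (-0.31) lie left of it.

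Rps27l was the member that did not pass between glucagon-only and insulin-only wells. It encodes a close relative of Rps27 and is known as a target of p53. In insulin-only wells it stood at 270.8, 229.6 and 242.1 CPM after sham and at 282.1, 310.1 and 302.1 after ppx. In glucagon-only wells it stood at 217.8, 356.5 and 296.5 CPM after sham and at 277.3, 423.4 and 399.9 after ppx. The groups overlap, the value was higher on 4 of 6 plates, and the log2 fold change was 0.34 ± 0.162 (edgeR adjusted p = 0.0811). Without the low-count filter the value was -0.00235.

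Between somatostatin-only and insulin-only wells the members differed less and less evenly. Of the 44 tested, 26 were higher in somatostatin-only wells and 1 lower (edgeR, adjusted p under 0.05), against 18% of all genes called higher and 20.2% lower. The median log2 fold change was 0.51 over the members and -0.02 over all genes, and 18 members were higher on all 6 plates (12.3% of all genes tested were). With no filter on low counts, 1 of the members was called in place of 27. It was Rplp0, called lower in somatostatin-only wells, so no member was called higher in that setting. The median of the members fell to 0.29 and that of all genes to -0.18. The share of all genes called in that setting is not given here. Somatostatin-only sums rest on 9 to 224 wells a plate.

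Rps4x, an X-linked small-subunit protein gene (chromosome X, 102184941 to 102189394), led the members that were higher on every plate. Its level was 292.5, 397.7 and 355.0 CPM after sham and 371.2, 347.7 and 243.6 after ppx in insulin-only wells. It was 570.0, 558.1 and 645.4 CPM after sham and 783.7, 818.6 and 586.8 after ppx in somatostatin-only wells, with no overlap (log2 fold change 0.90 ± 0.135). Glucagon-only wells lay at 804.5 to 1065 CPM. Rps9 (0.84), Rpl13 (0.82), Rpl14 (0.79), Rps21 (0.74), Rpl23 (0.69), Rpl26 (0.67), Rpl22 (0.66), Rps15 (0.66) and Rplp2 (0.64) followed, all called and higher on 6 of 6 plates. Rpl35a was larger (0.96) but not higher on every plate.

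Rplp0 went the other way. It encodes the base of the stalk of the large subunit, which carries pairs of Rplp1 and Rplp2 proteins and brings in elongation factors (gene on chromosome 5, 115559467 to 115563727). In insulin-only wells it stood at 790.8, 765.4 and 825.7 CPM after sham and at 1173, 902.4 and 945.8 after ppx. In somatostatin-only wells it stood at 578.7, 590.3 and 611.4 CPM after sham and at 687.9, 682.2 and 880.2 after ppx. It was lower in somatostatin-only wells on 6 of 6 plates (log2 fold change -0.49 ± 0.121, edgeR adjusted p = 0.000664), and it stayed lower and called under each of the alternative settings and with any 1 plate left out (-0.74 to -0.35). In glucagon-only wells it stood at 1249 to 1818 CPM, above every insulin-only value.

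The other stalk genes did not share that pattern. Rplp1 stood at 769.1 to 1559 CPM in insulin-only and 1003 to 1427 in somatostatin-only wells, which overlap, and at 1777 to 2434 in glucagon-only wells. Rplp2 stood at 335.8 to 638.5 CPM in insulin-only, 611.4 to 955.1 in somatostatin-only and 666.6 to 1350 in glucagon-only wells. Thus, from insulin-only to somatostatin-only wells, Rplp2 was called higher, Rplp0 was called lower, and Rplp1 was not called, although the 3 proteins work in 1 complex. The differences between these 3 genes were not tested.

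**Figure D4:**
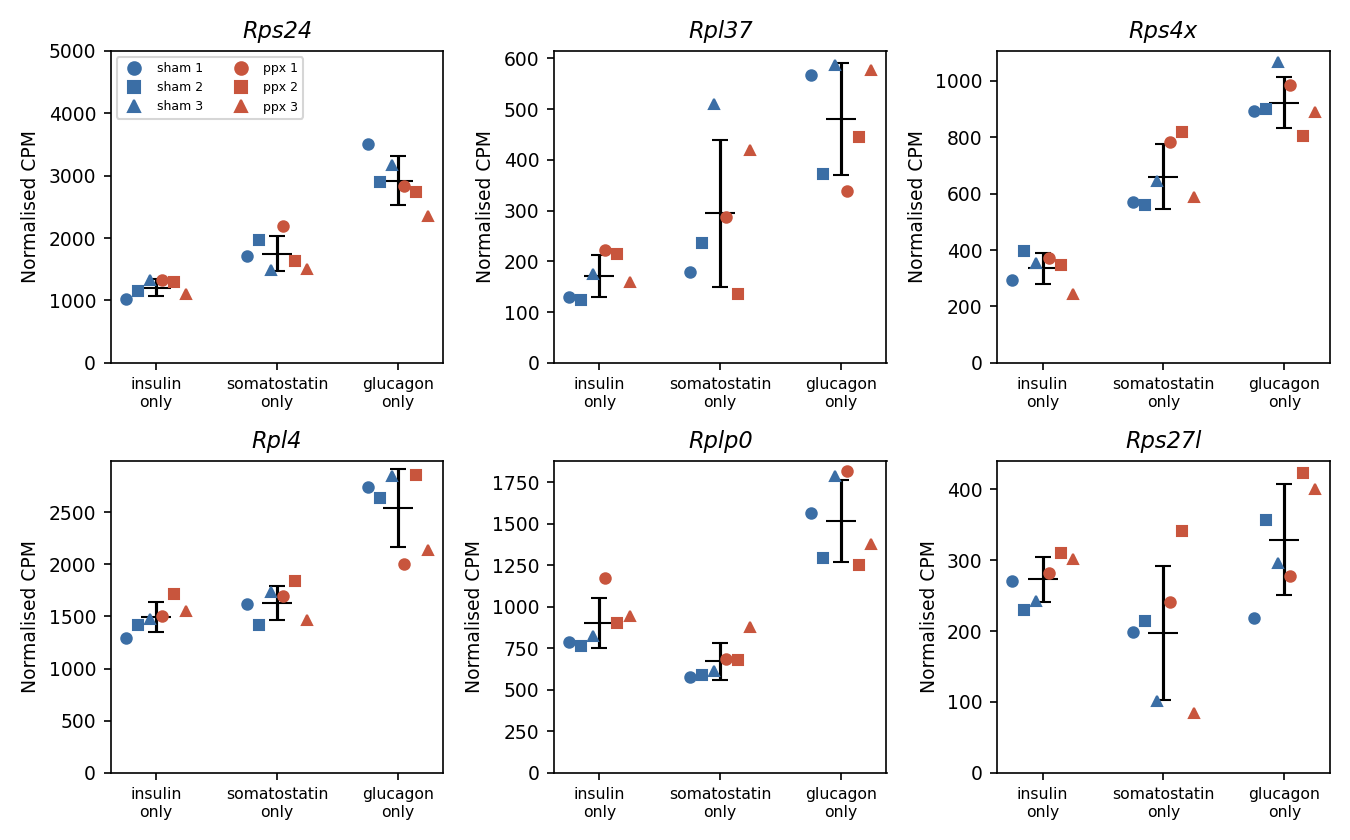
Normalised CPM (vertical axis) of 6 ribosomal protein genes in the 3 single-hormone classes (horizontal axis). Each point is a plate, coloured by operation and shaped by replicate, and bars are mean ± SD over 6 plates. Rplp0 is lowest in somatostatin-only wells (578.7 to 880.2 CPM), while Rps4x is lowest in insulin-only wells (243.6 to 397.7 CPM).

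Between glucagon-only and somatostatin-only wells, 36 of the 44 members were higher in glucagon-only wells and none was lower (edgeR, adjusted p under 0.05), where 14.7% of all genes were called higher and 9.51% lower. The median was 0.74, against 0.02 over all genes, and 26 members were higher on all 6 plates (11.9% of all genes tested were). With no filter on low counts 8 members were called, and with wells thinned to 1000 UMIs 10 of 33. The shares of all genes called in these settings are not given here, so the counts do not single out the members. Rplp0 had the largest difference (1.29 ± 0.127, edgeR adjusted p = 3.16e-13), with Rplp1 next among those higher on every plate (0.94 ± 0.115), followed by Rps2 (0.92) and Rps15a (0.86). Of the members not called, Rps3 (0.21 ± 0.313) and Rpl21 (0.30 ± 0.308) had the smallest values.

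Members that have a named relative could be compared only in part. Rpl10, on the X chromosome, stood at 513.3 to 821.6 CPM in insulin-only wells and was called higher in glucagon-only wells (0.92 ± 0.109), while its retrogene Rpl10l was listed at 0. Rpl22 was called higher in glucagon-only wells by 1.06 ± 0.123. Rpsa, which also has a role as a laminin receptor, was called higher in glucagon-only wells by 1.13 ± 0.135. Rps27, Rps27a and Rpl39 each stood at 0 on at least 1 plate in every class and did not pass the filter. Rps27a makes its protein fused to ubiquitin. Rps4l did not pass it either, at 0 to 104 CPM.

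Many UMIs lay on pseudogene rows that resemble the members. By sequence, 1174 rows annotated as pseudogenes resembled a member's transcript (at least 85% identity over at least 150 bases and 50% of the pseudogene), and 755 of them had UMIs in the kept wells. They held 76662 UMIs, 32.8% of the UMIs of members and pseudogenes together, and 36 of the 75 members with such a row had more UMIs there than on their own row. The match missed some rows, so these totals can be too low. Rows named as pseudogenes of Rpl10 held 1629 UMIs, while the rows matched to it held 428. For Rpl9 the values were 1373 and 307. For other members, such as Rpl11 (0 and 2605), the matched rows held more. Reads of a gene and of its near-identical copies cannot be told apart from these tables, so levels of single members are uncertain, above all low ones.

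Rpl3, which lies close to the peptide-joining centre of the ribosome (chromosome 15, 80077791 to 80091868), is an example. It was listed at 0 UMIs, while its pseudogene rows held 1222, of which 1066 were on Rpl3-ps1, whose transcript was 99.8% identical to it. Rps13 had 7 UMIs on its row and 2958 on pseudogene rows, Rps29 had 211 and 4886, and Rpl39 had 42 and 1990. At the other end, Rps24 had 10070 UMIs on its row and 2789 on pseudogene rows, and Rps27l 1753 and 20. A row at 0 or near it thus says nothing about whether the gene is used in these cells.

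**Figure D5:**
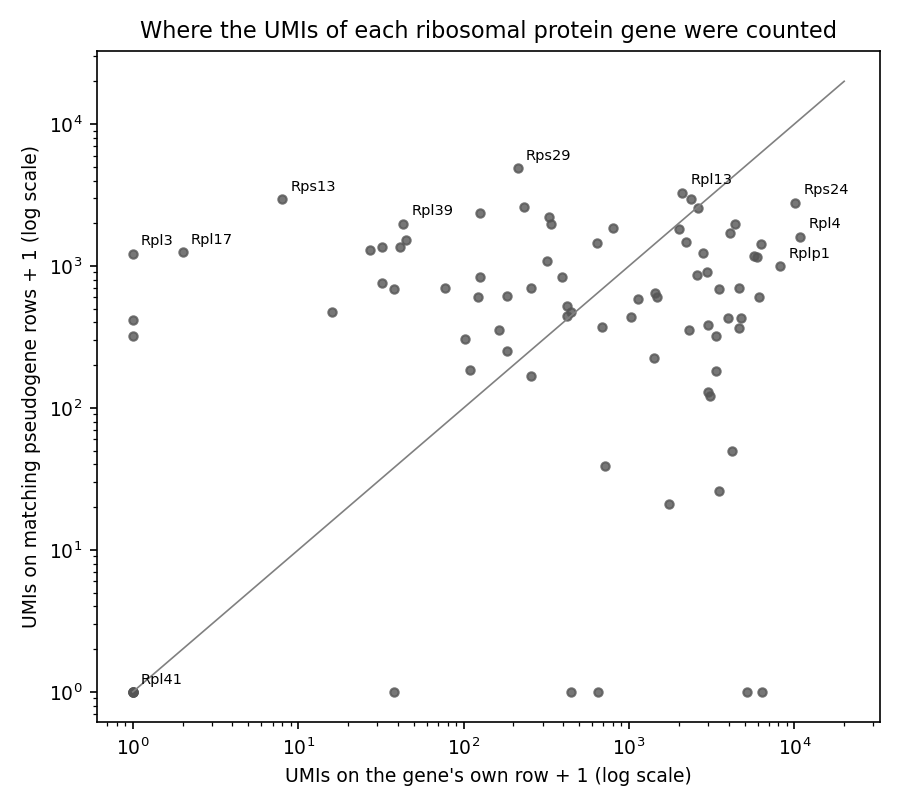
UMIs counted on the row of each of the 82 ribosomal protein genes (horizontal axis, plus 1, log scale) against UMIs on the pseudogene rows that resemble it (vertical axis, plus 1, log scale), over all kept wells. The line marks equal numbers. Rpl3, Rps13 and Rps29 lie far above it, with 1222, 2958 and 4886 UMIs on pseudogene rows.

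The part counted on pseudogene rows was alike in the classes: 32.8% ± 1.48 in insulin-only, 32.4% ± 2.47 in somatostatin-only and 32.8% ± 1.08 in glucagon-only wells (n = 6 plates each). With the pseudogene rows added, the share of UMIs was 2.36% ± 0.247, 3.44% ± 0.382 and 4.74% ± 0.445 in these classes, and the order held on 6 of 6 plates. With each member's pseudogene rows summed into it, 71 members passed the filter. Of these 71, 69 were called higher in glucagon-only than in insulin-only wells and none lower, and 46 were called higher and 1 lower in somatostatin-only than in insulin-only wells (edgeR, adjusted p under 0.05). Of the 1806 genes in that fit, 840 and 703 were called in either direction.

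Other genes of protein synthesis include some known for TOP mRNAs or for binding the ribosome, and the factors that start and carry on translation. Among 9 TOP or ribosome-bound genes tested, 6 were higher in glucagon-only than in insulin-only wells and none lower (median 1.03), where 23.8% and 23.9% of all genes were. They were the host genes of small nucleolar RNAs Snhg8 (2.33 ± 0.275) and Gas5 (1.66 ± 0.174), the nucleolar protein gene Npm1 (1.33 ± 0.137), Rack1, a scaffold on the small subunit (1.17 ± 0.104), Tpt1 (1.03 ± 0.177) and Naca (0.97 ± 0.183), which binds new protein chains. In somatostatin-only over insulin-only wells 6 of the 9 were also called higher and none lower, where 18% and 20.2% of all genes were. Snhg8 stood at 1.81, Gas5 at 0.99 and Rack1 at 0.42.

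Among 30 translation factors tested, 11 were higher and 5 lower in glucagon-only than in insulin-only wells (median 0.19), where 23.8% of all genes were called higher and 23.9% lower. The elongation factors Eef1a1 (0.99 ± 0.0938), Eef1g (0.94 ± 0.141) and Eef2 (0.49 ± 0.11) were among those higher, as were Eif4b, which helps to unwind the mRNA (1.19 ± 0.195), and the Eif3 subunit Eif3h (0.98 ± 0.172). Eif3m, another Eif3 subunit (-0.94 ± 0.227), Eif5 (-0.91 ± 0.177), Eif2s2, Eif4g2 and Eif1 were lower. In somatostatin-only over insulin-only wells 4 of the 30 were higher and 6 lower, near the 18% and 20.2% of all genes. In glucagon-only over somatostatin-only wells 7 were higher and none lower, against 14.7% and 9.51% of all genes.

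Genes that build ribosomes and genes of the mitochondrial ribosome were mostly too low to test. Of the ribosome biogenesis list, 4 genes were tested and none was called between glucagon-only and insulin-only wells (edgeR, with 0 at an unadjusted p under 0.05). Of the mitochondrial ribosome list, 4 were tested between classes and Mrpl52 was higher in glucagon-only than in insulin-only wells (0.64 ± 0.239). Of all genes, 23.8% were called higher and 23.9% lower in that comparison, so 4 genes cannot set either list apart. In somatostatin-only wells Mrpl24 (0.71 ± 0.271) and Mrpl52 (0.85 ± 0.252) were higher than in insulin-only wells, as were 18% of all genes. Mrpl24 was lower in glucagon-only than in somatostatin-only wells (-1.04 ± 0.34, edgeR adjusted p = 0.0172), as were 9.51% of all genes.

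The second comparison of the series is ppx against sham, 4 weeks after the operation. In insulin-only wells the share of ribosomal protein UMIs was 1.47% ± 0.125 on the 3 sham plates and 1.70% ± 0.0565 on the 3 ppx plates. Every ppx plate lay above every sham plate, by 0.229 points on average. The exact permutation p of 0.1 is the smallest that 3 plates against 3 can give, so the design cannot pass 0.05 (adjusted 0.2 over 10 tests). The difference was 0.352 points between the tomato-positive plates (1 against 1) and 0.141 between the tomato-negative plates (1 sham against 2 ppx). With hormone and mitochondrial UMIs left out of the total the plates overlapped. They stood at 2.28%, 2.46% and 2.62% after sham and 3.06%, 2.66% and 2.47% after ppx. Depth also lay apart: median UMIs per insulin-only well were 5217, 4483 and 4796 after sham and 4307, 3848 and 3996 after ppx. The share by depth is given above, and the part of depth in the difference between operations was not tested.

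In the other classes the operations overlapped. Somatostatin-only wells gave 2.31% ± 0.0768 on sham and 2.33% ± 0.417 on ppx plates (difference 0.0203 points, exact permutation p = 1, n = 3 and 3). Glucagon-only wells gave 3.33% ± 0.292 on sham and 3.03% ± 0.244 on ppx plates (difference -0.296 points, exact permutation p = 0.4, n = 3 and 3). The difference between ppx and sham was larger in insulin-only than in somatostatin-only wells by 0.209 points (exact permutation p = 0.7, n = 3 and 3), so the 2 classes were not shown to respond differently.

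No single member was called between ppx and sham. In insulin-only wells 0 of 60 members tested passed in edgeR and 0 in DESeq2, and 9 had an unadjusted p under 0.05 in edgeR. Of all 8110 genes tested 0.432% were called, and 729 had an unadjusted p under 0.05. The median log2 fold change was 0.08 over the members and -0.01 over all genes. In 7 members every ppx plate lay above every sham plate (Rpl4, Rpl21, Rpl22, Rpl32, Rpl35, Rplp0 and Rps27l), which 5.57% of all genes did. In 1 member, Rps19, every ppx plate lay below, which 9.17% of all genes did.

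Rpl35, a large-subunit protein at the exit of the ribosome's tunnel, had the smallest p. It stood at 43.33, 99.05 and 62.57 CPM after sham and 178.2, 136.8 and 106.5 after ppx in insulin-only wells (log2 fold change 0.74 ± 0.216, edgeR adjusted p = 0.153). Rpl38 (0.44 ± 0.148, edgeR adjusted p = 0.262) and Rps27l (0.37 ± 0.142, edgeR adjusted p = 0.383) were next. Rps24 differed by 0.07 ± 0.142 and Rpl4 by 0.21 ± 0.138. In somatostatin-only wells 0 of 40 members passed in edgeR and 0 in DESeq2, and 4 had an unadjusted p under 0.05 in edgeR. Of all 904 genes tested there 0.111% were called, and 36 had an unadjusted p under 0.05 in edgeR. The median was 0.08 over the members and -0.03 over all genes.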

How the data were processed

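Islet cells were sorted into 384-well plates and profiled by MARS-seq. The files hold raw UMI counts as the authors deposited them, with genes in rows and the wells of 1 plate in columns. Reads were aligned with HISAT 0.1.6 to mm10, per the submitters' processing notes; how UMIs were assigned to genes is not given in the sources used here. ERCC spike-in rows (92, with 3 UMIs) were left out. Doublets were not removed, since joined cells are a subject of the series.

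Wells were filtered and classed as described above. A class was used on a plate with at least 10 insulin-only wells or 5 wells of another class. Shares are UMIs summed over wells, compared by exact permutation over plates. UMI sums were tested with edgeR 4.0.16 (TMM scaling, filterByExpr, quasi-likelihood F test, Benjamini-Hochberg adjustment, R 4.3.3), with plate as a block between classes; standard errors come from the F statistic, and CPM use TMM-scaled totals. DESeq2 1.42.0 was the second tool. The fits were tested on simulated data. Pseudogene rows were matched to GENCODE transcripts with blastn 2.17.0. Counts at the 3′ end do not scale with transcript length, but capture differs between genes.

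Named members are, per comparison, the 10 called with the largest change in the same direction on every plate, paralogue pairs, stalk genes and the 5 most abundant, with the next by p where fewer than 3 passed. Some members are not reported by name here. Members, lists and tests were chosen with earlier results of these data known. Same-numbered plates of the operations deviated together weakly or not at all (correlations -0.00894 to 0.11).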

Additional observations from a re-analysis of the deposited data

Results flagged for a closer look

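UMIs were also counted on rows outside the 82 genes that resemble them. The 1174 pseudogene rows that resemble a member held 76662 UMIs in the kept wells, and the comparisons of members use none of them except where stated. The part of family UMIs on these rows ranged from 30.9% to 35.1% over plates in insulin-only wells and from 31.0% to 34.0% in glucagon-only wells.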

How the results depend on the processing

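Shares were recomputed with another denominator, per-well means, stricter wells, doubled hormone thresholds, tomato-negative or tomato-positive plates alone, without Ppy-high wells and with pseudogene rows (the last chosen after seeing the data). The differences between classes kept their sign throughout. They no longer reached p = 0.0312 where fewer plates were left: with at most 10% mitochondrial UMIs, somatostatin-only minus insulin-only was 0.938 (exact sign-flip permutation p = 0.125), glucagon-only minus somatostatin-only 0.857 (p = 0.125) and hormone-low minus insulin-only 1.03 (p = 0.25), and with at least 1000 UMIs the last was 1.23 (p = 0.125). The deep minus shallow difference was -0.137 with doubled thresholds. The ppx minus sham difference in insulin-only minus that in somatostatin-only wells was -0.0403 without hormone and mitochondrial UMIs. On tomato-negative plates, ppx minus sham was -0.165 in somatostatin-only and -0.735 in glucagon-only wells. On tomato-positive plates it was 0.352 in insulin-only and 0.0424 in glucagon-only wells, joined minus sum was -0.0684 and deep minus shallow 0.105. With pseudogene rows, ppx minus sham in somatostatin-only wells was -0.0472. Without Ppy-high wells (also chosen after seeing the data), fewer plates were left, and somatostatin-only minus insulin-only was 0.781 (exact sign-flip permutation p = 0.0625), glucagon-only minus insulin-only 1.76 (p = 0.125), glucagon-only minus somatostatin-only 1.03 (p = 0.25), joined minus sum -0.0227 and ppx minus sham in somatostatin-only wells -0.0594. The causes were not tested.

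With 1 plate left out, 5 plates cannot reach 0.05. The ranges were 1.49 to 1.69 for glucagon-only minus insulin-only, 0.772 to 0.93 for glucagon-only minus somatostatin-only, 0.693 to 0.847 for somatostatin-only minus insulin-only, 1.02 to 1.26 for hormone-low minus insulin-only, -0.0127 to 0.0583 for joined minus sum and -0.0927 to -0.0232 for deep minus shallow. For ppx minus sham they were 0.158 to 0.278 in insulin-only, -0.118 to 0.26 in somatostatin-only and -0.401 to -0.129 in glucagon-only wells, and -0.0083 to 0.32 for the difference between the first 2. Members called in either direction numbered 40 to 44, 24 to 30 and 27 to 37 for glucagon-only over insulin-only, somatostatin-only over insulin-only and glucagon-only over somatostatin-only wells, and 0 to 0 for ppx against sham. The shares of all genes called with a plate left out are not given here, so these counts do not single out the members.

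With no filter, 1 and 8 members were called for the last 2 of those class comparisons, the 1 being Rplp0, called lower. For the first, 30 were called, and the median of all genes was -0.36 in place of -0.02. Thinned wells gave 10 for glucagon-only over somatostatin-only. Pseudogene rows gave 69 and 47 for the first 2. Of these settings, all genes called are given only for the pseudogene rows. The other counts in this paragraph thus do not single out the members. Without Ppy-high wells 44, 19 and 28 of 48 members were called; Rplp1 was -0.128 and Rpl4 -0.0167 in somatostatin-only over insulin-only wells, and Rplp1 -0.112, Rpl10 -0.0816 and Rpl4 -0.146 for ppx against sham in somatostatin-only wells. With no filter Rps27l was -0.00235 (glucagon-only over insulin-only), and Rplp1 was -0.215, Rpl4 -0.194 and Rpsa -0.00299 (somatostatin-only over insulin-only). Thinned, Rpl22 was -0.164 (glucagon-only over somatostatin-only). Between ppx and sham, where no member was called, insulin-only signs turned for Rpl11 with pseudogene rows (0.404), and Rps14 (-0.0733) and Rpl8 (0.0435) when thinned. With a plate left out, values ranged from -1.08 to 0.394 for Rpl11, from -0.33 to 0.104 for Rpl10 and from -0.00881 to 0.182 for Rps24. Somatostatin-only signs turned for Rps24 (-0.0447) and Rpl4 (-0.0644) with no filter, and for Rpl22 when thinned (0.192) or with tomato status as a covariate (0.0112). With a plate left out, values ranged from -0.0256 to 0.383 for Rpl10, -0.173 to 0.21 for Rpl22, -0.00803 to 0.144 for Rpl4, -0.179 to 0.000581 for Rpl8 and -0.0796 to 0.21 for Rps24.

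The labels give both operations the same replicate numbers. With the replicate block, 0 members were called in either class, and shares of ppx minus sham gave exact p = 0.25 in insulin-only, 1 in somatostatin-only and 0.75 in glucagon-only wells. The best partner of a sham plate was its own number for replicates 1 and 3 in insulin-only wells and 2 and 3 in somatostatin-only wells. It was another number for the remaining replicates.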
